A study of Mus musculus with 7 samples.

Results

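Albumin, α-fetoprotein and transthyretin are transcribed mainly in hepatoblasts and hepatocytes, the parenchymal cells that surround the blood stem cells of the fetal liver. They are described here with other genes active in hepatocytes, not all of them mainly there, since the keratin genes also serve other simple epithelia. The set was chosen by name, with earlier results of these data known. It takes every array probe set annotated to 1 of 10 liver genes alone: Alb, Afp, Ahsg, Apoa1, Apoa2, Ttr, Krt8, Krt18, Trf and Hnf4a. That gave 23 probe sets of 9 genes, among 12393 genes with a probe set of their own. The sole Trf (transferrin) probe set was annotated to Srprb as well, so Trf entered no count. The samples were haematopoietic stem cells of mouse fetal liver at embryonic day 14.5, with 1 Affymetrix array each. In 3 samples the embryos were homozygous for TFIIAα-βnc, a non-cleavable form of the large subunit of the general transcription factor TFIIA (TFIIA nc/nc), from 2, 2 and 4 pooled embryos. In 4 samples the embryos were wild type, with 1, 1, 4 and 3 embryos. All came from heterozygous parents, so the allele is carried by every cell of a TFIIA nc/nc embryo and not by the stem cells alone. The cells passed 2 rounds of sorting, for Sca-1, c-Kit and CD150 on the surface and against lineage antigens. The lineage antibodies named in the labels are directed at T cells, B cells, erythroid cells and granulocytes, and none is directed at a hepatocyte or endothelial antigen. Samples are labelled as biological replicates, and p-values below measure the spread between them.

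Before birth the liver is the main site of blood formation, and its hepatoblasts already secrete plasma proteins. α-Fetoprotein is the chief plasma protein of the fetus and albumin that of the adult, and both genes descend from 1 ancestral gene. HNF4α is a nuclear receptor that controls much of the hepatocyte programme, while keratins 8 and 18 form the intermediate filaments of hepatocytes and other simple epithelia. In RNA from a population of cells, fewer cells of a type and less RNA per cell cannot be told apart.

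Stem cell markers were bright on every array. Kit, the receptor named in the sort, read 7.50, 8.08 and 8.18 in TFIIA nc/nc replicates 1 to 3 and 7.61, 8.31, 8.66 and 9.06 in wild-type replicates 1 to 4, on the log2 scale of RMA intensity used for every level here. Of 11 measured stem cell markers 10 lay above the array median on each array, where the medians were 3.69 to 3.82. Ly6a, which encodes Sca-1, had no probe set of its own. The arrays also differed in endothelial RNA. The brightest probe set of Lyve1, whose product binds hyaluronan on sinusoidal endothelium, stood at 9.60, 9.83 and 3.34 in TFIIA nc/nc and at 9.73, 2.91, 3.65 and 2.78 in wild type. The first 2 TFIIA nc/nc replicates and the first wild-type one thus lay above log2 6 and the other 4 arrays below it, the nearest values being 9.60 and 3.65. These 2 sets of arrays were divided by a measured level and are not groups of the study, so differences between them are given as a description with no test.

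Albumin and α-fetoprotein RNA were both high on the 3 arrays with high Lyve1, which come from both genotypes. Alb read 6.62, 7.44 and 2.28 in TFIIA nc/nc and 6.12, 2.74, 1.84 and 2.52 in wild type. The genotypes overlapped, while every array with high Lyve1 lay at least 3.37 log2 units above every array with low Lyve1. Alb averaged 6.72 over the arrays with Lyve1 above log2 6 and 2.35 over those below, a difference of 4.38, or 20.8-fold. The brightest Afp probe set read 7.91, 8.84 and 4.76 in TFIIA nc/nc and 6.58, 4.32, 3.05 and 4.50 in wild type. Its averages were 7.78 above and 4.16 below, a difference of 3.62, or 12.3-fold. On 3 of the arrays with low Lyve1, TFIIA nc/nc replicate 3 and wild-type replicates 2 and 4, this probe set still lay above the array median, whereas Alb lay below it on all 4.

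Afp had 5 probe sets, and they did not all report the same. Probe set 1416646_at read 6.27, 7.23 and 3.55 in TFIIA nc/nc and 4.86, 3.68, 3.71 and 3.39 in wild type. Probe set 1436879_x_at read 6.27, 7.22 and 3.35 in TFIIA nc/nc and 5.04, 3.35, 3.07 and 3.29 in wild type. Both were high on the same 3 arrays as the brightest one, with differences of 2.54 and 2.91 between the sets of arrays. On 1436881_x_at, wild-type replicate 1 was the highest array at 4.27, above 3.65 and 3.35 in TFIIA nc/nc replicates 1 and 2. The last probe set, 1436880_at, lay between 1.55 and 2.07 on every array, far below the medians, and did not follow the others. An _x_at suffix marks a probe set with probes that may also match other transcripts.

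Alb and Afp are neighbours on mouse chromosome 5, on 1 strand, with annotated start sites 29844 bases apart. Their promoter windows, 250 bases before to 50 after the start, are shown because both genes were high on the same arrays. Capitals mark matches on either strand to 4 short motifs. They are the TATA box (TATAAA), the element where TFIIA steadies the TATA-binding protein, and the CCAAT box (CCAAT). The other 2 are a motif of the liver factor HNF1 (GTTAAT) and the core of a C/EBP site (TTGCNNAA). The sequences are from RefSeq, build GRCm38.p6.
The Alb window is chr5:90460620-90460919 and the Afp window chr5:90490464-90490763, both on the plus strand.
Alb: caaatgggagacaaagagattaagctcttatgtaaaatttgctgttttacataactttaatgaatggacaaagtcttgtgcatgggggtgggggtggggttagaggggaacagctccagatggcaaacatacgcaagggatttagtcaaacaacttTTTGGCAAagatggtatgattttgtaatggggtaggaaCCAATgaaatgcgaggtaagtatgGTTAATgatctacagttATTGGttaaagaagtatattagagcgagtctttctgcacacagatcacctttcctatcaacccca
Afp: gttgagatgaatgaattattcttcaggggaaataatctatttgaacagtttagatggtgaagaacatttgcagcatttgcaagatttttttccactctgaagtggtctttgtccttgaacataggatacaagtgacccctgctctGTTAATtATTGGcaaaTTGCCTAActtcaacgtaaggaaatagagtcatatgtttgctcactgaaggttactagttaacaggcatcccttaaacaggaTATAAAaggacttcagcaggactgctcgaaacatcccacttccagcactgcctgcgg
The Afp window held TATAAA at −7 and an HNF1 motif at −105 from the annotated start. The Alb window held an HNF1 motif at −32 and no exact TATAAA. Only exact letters were sought, so variants such as the tatatta in the Alb window were not counted. The search therefore does not show that Alb lacks a TATA box. Both windows also held a CCAAT box and a C/EBP core. Over all 32851 windows in the table, the TATA box was present in 13.6%, the CCAAT box in 37.4%, the HNF1 motif in 7.10% and the C/EBP core in 10.8%. Windows were given for 8 of the genes, 10 windows in all. Of these 3 held a TATA box, 7 a CCAAT box, 3 an HNF1 motif and 4 a C/EBP core. A match is a description of the letters and not a site of binding.

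Transthyretin, the carrier of thyroxine and of retinol-binding protein, followed albumin on 2 of its 3 probe sets. Probe set 1454608_x_at read 5.32, 6.89 and 1.58 in TFIIA nc/nc and 5.32, 1.91, 1.90 and 1.76 in wild type. The 3 arrays with high Lyve1 lay at least 3.40 log2 units above the other 4. Probe set 1455913_x_at read 4.49, 5.65 and 1.37 in TFIIA nc/nc and 3.86, 2.52, 2.51 and 1.53 in wild type. The averages of 1454608_x_at were 5.84 above and 1.79 below, a difference of 4.05, or 16.6-fold. Probe set 1451580_a_at, the brightest by its mean over the 7 arrays, had a smaller range, from 2.86 to 4.99, and its sets of arrays overlapped.

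The apolipoproteins, the protein part of lipoprotein particles, divided into 2 patterns. Apoa2, the second protein of high-density lipoprotein, read 4.28, 5.65 and 3.04 in TFIIA nc/nc and 5.05, 3.62, 3.69 and 3.12 in wild type. It was high on the same 3 arrays as albumin, by 1.63 on average, with wild-type replicate 1 above TFIIA nc/nc replicate 1. Apoa1, the main protein of that particle, read 4.11, 4.32 and 2.94 in TFIIA nc/nc and 2.97, 2.80, 2.77 and 2.88 in wild type on its brightest probe set. Wild-type replicate 1 stood only 0.03 above TFIIA nc/nc replicate 3, so 2 arrays were high and not 3. The other 3 Apoa1 probe sets put wild-type replicate 1 at 2.36 to 2.77, inside or below the range of the arrays with low Lyve1. TFIIA nc/nc replicates 1 and 2 exceeded wild-type replicate 1 by 1.15 and 1.36 on the brightest Apoa1 probe set, against 0.50 and 1.32 for Alb and −0.76 and 0.61 for Apoa2. Thus the order of the 3 arrays with high Lyve1 was not the same for each liver gene. Within these 3 arrays, of which 1 is wild type, the genotype differences of these genes did not pass in limma (adjusted p = 0.596 for Alb, 0.515 for Apoa1 and 0.981 for Apoa2).

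Ahsg, which encodes fetuin-A, a secreted inhibitor of mineral deposition, had a dim signal throughout. Its probe set read 2.79, 2.77 and 2.90 in TFIIA nc/nc and 2.25, 2.57, 2.19 and 2.37 in wild type. Every value lay below its array's median, the genotypes did not overlap, and the sets of arrays by Lyve1 overlapped. RMA returns a value for each probe set, transcribed or not, and levels this low have no firm order.

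The genes of the filament proteins and of the transcription factor did not divide the arrays as albumin did. Krt18 read 5.78, 5.49 and 5.98 in TFIIA nc/nc and 5.81, 6.45, 6.57 and 6.50 in wild type. All 3 arrays with high Lyve1 lay below the other 4, by 0.68 on average, the reverse of Alb. Krt8, the partner of keratin 18, read 3.07, 4.28 and 3.79 in TFIIA nc/nc and 3.47, 3.39, 3.34 and 3.11 in wild type, near the array medians, with no division by Lyve1. Its other 2 probe sets lay between 2.14 and 3.08 on every array. Both keratin genes have many processed pseudogenes in mammals, and _x_at probe sets of such genes may match other transcripts.

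Krt8 and Krt18 lie 23874 bases apart on chromosome 15, on opposite strands, and are shown beside the Alb and Afp pair because neither was high on the arrays with high Lyve1. Capitals mark the same 4 motifs.
The Krt8 window is chr15:102004293-102004592 on the minus strand and the Krt18 window chr15:102027966-102028265 on the plus strand.
Krt8: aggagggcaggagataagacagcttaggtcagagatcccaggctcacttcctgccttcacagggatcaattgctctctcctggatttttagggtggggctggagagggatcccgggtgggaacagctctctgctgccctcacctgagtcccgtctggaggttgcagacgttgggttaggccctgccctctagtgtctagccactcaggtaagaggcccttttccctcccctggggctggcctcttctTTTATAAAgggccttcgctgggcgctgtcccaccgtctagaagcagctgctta
Krt18: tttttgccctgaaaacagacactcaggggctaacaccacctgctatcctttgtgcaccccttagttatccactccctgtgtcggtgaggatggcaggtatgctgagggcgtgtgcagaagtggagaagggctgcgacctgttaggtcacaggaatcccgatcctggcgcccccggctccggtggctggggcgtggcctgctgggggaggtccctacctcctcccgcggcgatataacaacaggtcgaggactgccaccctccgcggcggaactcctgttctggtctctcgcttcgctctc
The Krt8 window held a TATA box at −1, overlapping a match on the other strand at −3. None of the 4 motifs was found in the Krt18 window, which says nothing of the factors.

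Hnf4a had 4 probe sets. The brightest, 1427001_s_at, read 6.05, 6.22 and 6.10 in TFIIA nc/nc and 6.12, 5.94, 5.70 and 5.81 in wild type, all between 5.70 and 6.22. Probe set 1427000_at read 4.01, 4.37 and 4.02 in TFIIA nc/nc and 4.07, 4.04, 4.75 and 4.63 in wild type. The other 2 lay between 1.73 and 3.28. No Hnf4a probe set separated the sets of arrays by Lyve1, and an _s_at suffix marks probes shared by several transcripts. The brightest averaged 6.13 on the arrays with high Lyve1 and 5.89 on the others, a small difference of 0.24. For 1427000_at the difference was −0.21, and for the other 2 it was 0.17 and 0.04. The probe set shared by Trf and Srprb, a subunit of the signal recognition particle receptor, read 4.49, 5.49 and 4.77 in TFIIA nc/nc and 4.99, 4.74, 5.03 and 5.29 in wild type, also without a division.

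**Figure D1:**
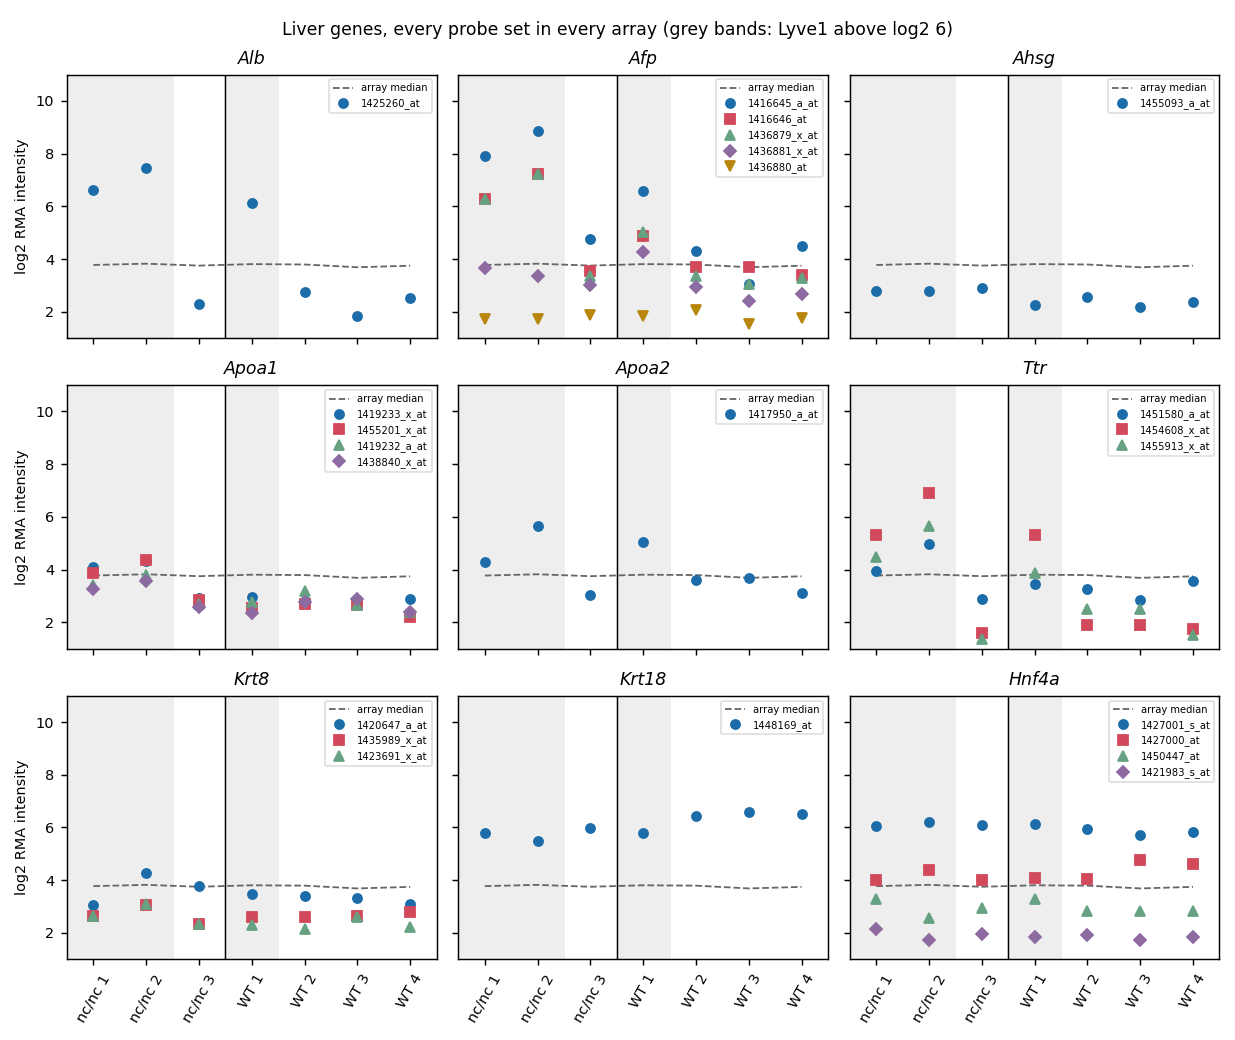
Log2 RMA intensity (vertical axis) of every probe set of the 9 liver genes in each of the 7 arrays (horizontal axis, TFIIA nc/nc left of the black line, wild type right of it). Points are probe sets, the dashed line is the array median, and grey bands mark the arrays with Lyve1 above log2 6, where Alb stands at 6.12 to 7.44 against 1.84 to 2.74 elsewhere.

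Counted over the 23 probe sets, 7 had all 3 arrays with high Lyve1 above all 4 with low Lyve1 and a mean difference of at least 1 log2 unit. They belong to 4 genes, Alb, Afp, Apoa2 and Ttr, and probe sets of 1 gene are not independent. The same held for 1.34% of all 22626 probe sets. The genes and the Lyve1 limit were chosen with earlier results of these data known, so the counts are a description. Just outside lay Afp 1436881_x_at and Apoa1 1419233_x_at, with separate arrays and differences of 0.9992 and 0.952, and the lowest of the 7 was Apoa2 with 1.63. The median difference over the 23 was 0.59, against 0.00 over all probe sets.

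The study compared the genotypes, and no liver probe set differed past the threshold. Of 23 probe sets 0 had a Benjamini-Hochberg adjusted p under 0.05 in limma, fitted over all 22626 probe sets, of which 0.00442% did. Before adjustment, limma gave 6 probe sets higher in TFIIA nc/nc and 1 lower at p under 0.05, 30.4% of the 23 against 4.00% of all probe sets. These were 3 probe sets of Afp, 2 of Apoa1, and those of Ahsg and Krt18. All TFIIA nc/nc arrays lay above all wild-type arrays in 2 of 23, Ahsg and Apoa1 1455201_x_at, against 2.85% of all probe sets. In that Apoa1 probe set the nearest values were 2.83 in TFIIA nc/nc replicate 3 and 2.70 in wild-type replicate 2. Both are dim, below their array medians. They lay below in 0 of 23, against 2.81%. Of the 23, 19 had the higher mean in TFIIA nc/nc, against 10891 of all 22626 probe sets. The median difference was 0.47 against −0.01 over all probe sets. The 23 come from 9 genes, so their directions are not separate observations.

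Afp had the widest genotype difference of the 9 genes and Alb the next. Afp averaged 7.17 ± 2.14 over the 3 TFIIA nc/nc arrays and 4.61 ± 1.46 over the 4 wild-type arrays (mean ± SD). Its difference, TFIIA nc/nc minus wild type, was 2.55 (SE 1.00, 95% interval 0.31 to 4.80, limma, Benjamini-Hochberg adjusted p = 0.984). Alb averaged 5.45 ± 2.77 over the TFIIA nc/nc arrays and 3.30 ± 1.91 over the wild-type arrays, a difference of 2.14 (SE 1.29, interval −0.77 to 5.06, limma adjusted p = 0.984). Each genotype held arrays of high and of low Alb, with 2 of 3 high in TFIIA nc/nc and 1 of 4 high in wild type. The Alb interval reaches from a lower level in TFIIA nc/nc to a large excess, so these arrays do not show that albumin RNA was alike.

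Within the sets of arrays the genotype difference was smaller for Alb. It was 0.91 among the 3 arrays with Lyve1 above log2 6, of which 1 is wild type, and −0.08 among the 4 below, of which 1 is TFIIA nc/nc. For the brightest Afp probe set it was 1.79 and 0.80. The Ttr probe sets differed: 1451580_a_at, the brightest, gave 1.02 and −0.33, against 0.66 over all arrays, and 1454608_x_at gave 0.79 and −0.28, against 1.87 over all arrays. With the Lyve1 level as a covariate the difference was 0.34 for Alb (limma adjusted p = 0.939) and 1.26 for Afp (limma adjusted p = 0.921). For Apoa2 it was −0.31 with the covariate (limma adjusted p = 0.929) and 0.46 without.

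The remaining differences were smaller and 1 was negative. Apoa1 differed by 0.94 (SE 0.30, interval 0.27 to 1.60) on its brightest probe set, by 1.18 on 1455201_x_at and by 0.54 and 0.55 on the others. The Apoa1 difference was 1.25 among the arrays with high Lyve1 and 0.12 among those with low Lyve1. On each Apoa1 probe set, all wild-type arrays and TFIIA nc/nc replicate 3 lay below their array medians. Ahsg differed by 0.47 (SE 0.15), with 0.53 and 0.52 in the 2 sets of arrays, all at dim levels. Krt18 averaged 5.75 ± 0.25 over the TFIIA nc/nc arrays and 6.33 ± 0.35 over the wild-type arrays, a difference of −0.58 (SE 0.22). It was −0.18 among the arrays with high Lyve1 and −0.52 among those with low Lyve1. Krt8 differed by 0.39 (SE 0.26) and Hnf4a by 0.23 (SE 0.15), and the second Hnf4a probe set by −0.24. The limma adjusted p was 0.984 for each of the 9 genes.

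**Figure D2:**
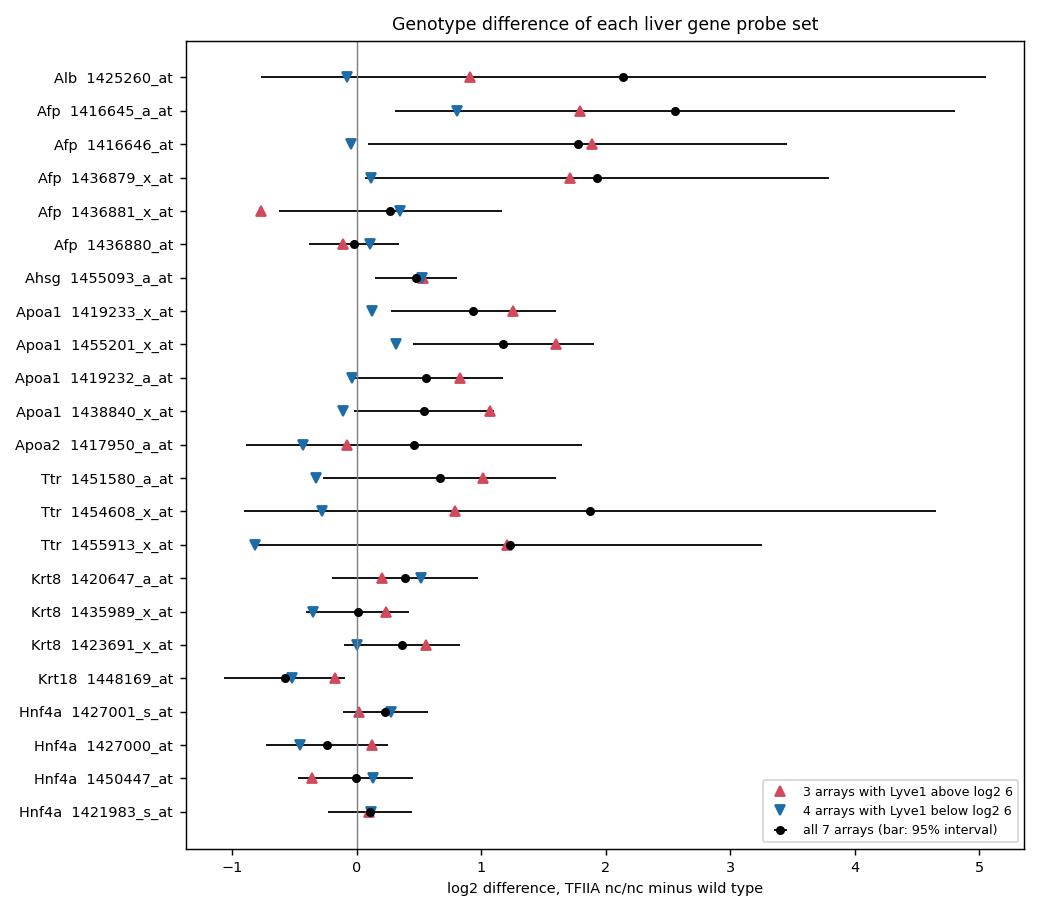
Log2 difference, TFIIA nc/nc minus wild type (horizontal axis), for each of the 23 probe sets (rows). Black points with 95% limma intervals are all 7 arrays, red triangles the 3 arrays with Lyve1 above log2 6 and blue triangles the 4 below, where Alb stands at 0.91 and −0.08 against 2.14 over all.

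Other hepatocyte genes were taken from 4 further lists. Of 23 measured genes of other plasma proteins, 21 lay below the array median on all 7 arrays, as did 14 of 16 metabolic enzymes, 9 of 13 transcription factors and 7 of 11 epithelial and hepatoblast genes. In the genotype fit 0 of the 23 plasma protein genes passed in limma, and the median difference was 0.18. In limma 3 of them had an unadjusted p under 0.05, against 549 of all 12393 genes. The 3 were Apom, a carrier of sphingosine phosphate, at 0.60 (SE 0.14), Plg, which encodes plasminogen, at 0.49 (SE 0.19), and Serpina1b, an inhibitor of neutrophil elastase, at 0.56 (SE 0.23). No plasma protein gene reached the mean level required for naming by Lyve1. Of the 23, 6 were higher on all 3 arrays with high Lyve1 than on any other array, against 5.55% of all genes. Plg was 1 of them, with a difference of 0.54. The mean was higher on those 3 arrays for 20 of the 23 and lower for 3, with a median difference of 0.28. Rbp4, the retinol carrier that binds transthyretin, was picked out after its values were seen, as the sole member of that list that met the Lyve1 criterion with a mean difference of at least 1. It read 3.62, 5.13 and 2.61 in TFIIA nc/nc and 3.40, 2.34, 2.37 and 2.68 in wild type.

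Among 16 metabolic enzymes 0 passed and 2 had an unadjusted p under 0.05 in limma, against 549 of all 12393 genes. The median difference was −0.04. Otc, of the urea cycle, differed by 0.64 (SE 0.23) at dim levels of 1.82 to 3.13. Cyp27a1, a sterol hydroxylase found in many tissues, differed by −0.52 (SE 0.22) at 4.27 to 5.57. Bhmt, of methionine metabolism, differed by 0.40 (SE 0.27). Otc and Bhmt were the 2 enzymes higher on all 3 arrays with high Lyve1, by 0.69 and 0.71, against 5.55% of all genes. Of the 16 enzymes, 10 had the higher mean on those arrays and 6 the lower. Within the arrays of high and of low Lyve1, the genotype difference was 0.57 and 0.29 for Otc and 0.0055 and 0.24 for Bhmt. Enzymes that mark the mature hepatocyte, such as Cps1, Tat and Cyp2e1, were among the 14 below the median throughout.

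Of 13 measured liver-enriched transcription factors 0 passed and 0 had an unadjusted p under 0.05 in limma, with a median difference of −0.05. Nr5a2, a nuclear receptor of liver and other endoderm, read 4.21, 5.07 and 2.12 in TFIIA nc/nc and 4.30, 1.75, 2.23 and 2.27 in wild type. It was above the median on the 3 arrays with high Lyve1 and below it on the other 4, by the same division as Alb. Hhex, needed for liver budding and also active in blood progenitors and endothelium, read 8.16 to 8.34 in TFIIA nc/nc and 8.37 to 8.86 in wild type, a difference of −0.35 (SE 0.16). Nr1h4, the bile acid receptor, differed by 0.28 (SE 0.24), and Nr0b2, a corepressor of bile acid synthesis, differed by −0.20 between the sets of arrays.

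Of 11 other epithelial and hepatoblast genes 0 passed and 0 had an unadjusted p under 0.05 in limma, with a median difference of −0.10. Dlk1, a surface protein of hepatoblasts, read 5.26, 4.27 and 4.49 in TFIIA nc/nc and 4.14, 4.66, 5.68 and 5.84 in wild type. It was not high with Alb, since TFIIA nc/nc replicate 2 and wild-type replicate 1 were the lowest arrays. Igf2, a fetal growth factor of liver and other tissues, read 7.18, 7.91 and 6.68 in TFIIA nc/nc and 7.21, 6.63, 7.34 and 6.67 in wild type. Krt7, a keratin of bile ducts, differed by −0.31 (SE 0.19), the tight junction protein Cldn3 by 0.50 (SE 0.35) and the desmosomal protein Dsp by 0.17 (SE 0.15).

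Markers of the other cells of the fetal liver were set beside these genes. Of 18 endothelial markers 15 were higher on all 3 arrays with Lyve1 above log2 6, with a median difference of 2.62. The same held for 5.55% of all genes, and Lyve1 is itself 1 of the 18. This list too was chosen with earlier results of these data known. The mean level of the 18 was 6.60, 7.11 and 4.28 in TFIIA nc/nc and 6.79, 4.30, 4.34 and 4.23 in wild type. None of the 18 lay below the median on all arrays. Stab2 and Oit3 of sinusoids, the mannose receptor Mrc1 and the cadherin Cdh5 differed by 4.55, 4.99, 5.06 and 3.73 between the sets, and Plvap by 3.41. Between the genotypes, 14 of the 18 endothelial markers had the higher mean in TFIIA nc/nc, with a median difference of 1.06. Of the 9 liver genes 8 did, with a median difference of 0.47, against 48.1% of all genes. Genes measured on the same arrays are not separate observations. The mean of the 9 liver genes was 4.95, 5.56 and 3.86 in TFIIA nc/nc and 4.65, 3.90, 3.56 and 3.82 in wild type. The same 3 arrays were thus the highest in both lists, although TFIIA nc/nc replicate 1 stood above wild-type replicate 1 in the liver genes and below it in the endothelial ones. The part of endothelial cells in the values of the liver genes was not tested.

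The medians of the other lists differed less between these sets of arrays. The 13 macrophage markers had a median difference of −0.15 by Lyve1, with means of 3.80, 4.73 and 5.27 in TFIIA nc/nc and 4.19, 4.46, 2.81 and 3.50 in wild type. Vcam1 differed by 2.14, Lgmn by 1.55 and Slc40a1 by 0.81 between the sets of arrays, whereas 8 of the 13 had the lower mean on the arrays with high Lyve1, among them Csf1r by −0.41 and C1qc by −0.80, picked out after their values were seen. All 13 had the higher mean in TFIIA nc/nc, against 48.1% of all genes. The 13 were measured on the same arrays, so their directions are not separate observations. The mean of this list was highest in TFIIA nc/nc replicate 3, at 5.27, and lowest in wild-type replicate 3, at 2.81. Between the genotypes Vcam1 differed by 2.00 (SE 0.65), Lgmn by 1.83 (SE 0.40) and Hmox1 by 1.14 (SE 0.47). The 8 erythroid markers had a median difference of 0.39, with Ermap at 1.77, Klf1 at 0.88 and Tfrc at 0.61. Between the genotypes Tfrc differed by 0.71 (SE 0.20), Ermap by 0.91 (SE 0.57) and Rhd by 0.35 (SE 0.25). The 12 mesenchymal and stellate cell markers had a median difference of 0.30, with Postn at −0.74, and Dcn, Lum and Reln, of smallest p, differed by 0.75, 0.48 and 0.52 between the genotypes. The 11 stem cell markers had a median difference of −0.22, and 5 of them, against 4.87% of all genes, were lower on all 3 arrays with high Lyve1, among them Gfi1 by −0.99, Procr by −0.88, Kit by −0.82 and Hlf by −0.61. Of the 13 macrophage, 8 erythroid, 12 mesenchymal, 18 endothelial and 11 stem cell genes, 0 passed in the genotype fit in limma. In that order, 3, 1, 0, 0 and 3 had an unadjusted p under 0.05 in limma, against 549 of all 12393 genes. The erythroid gene was Tfrc. The 3 stem cell genes were Gfi1, Procr and Hlf, with genotype differences of −0.77, −0.77 and −0.49.

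**Figure D3:**
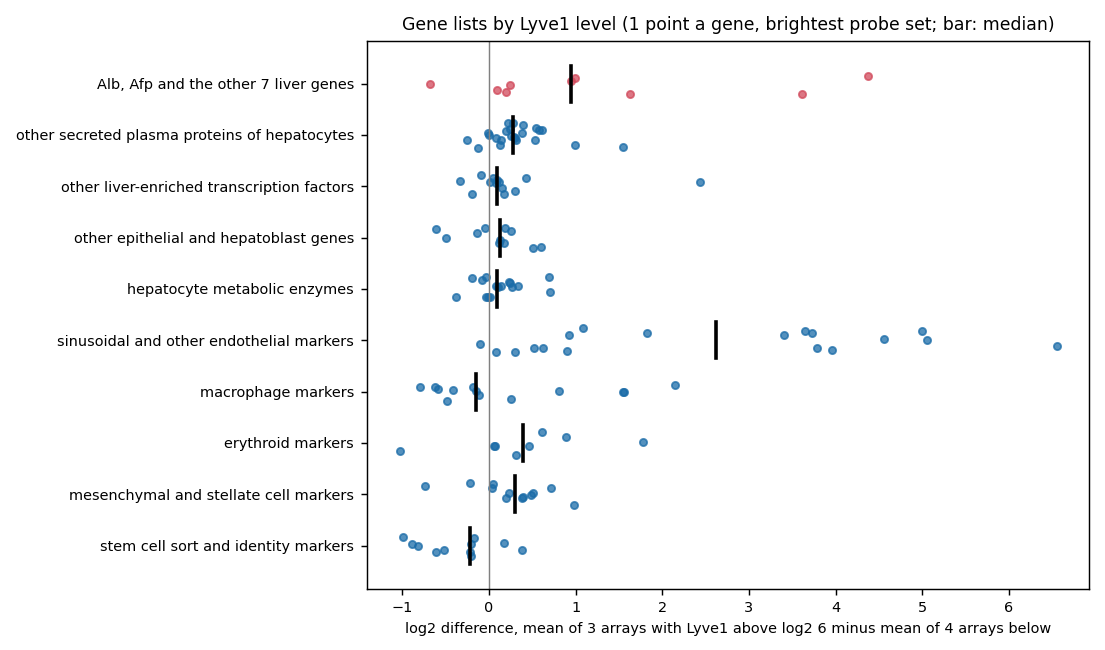
Log2 difference between the mean of the 3 arrays with Lyve1 above log2 6 and the mean of the 4 below (horizontal axis) for each gene, by its brightest probe set, in 10 lists (rows). Points are genes and bars medians, 0.95 for the 9 liver genes, 2.62 for the endothelial markers and 0.10 for hepatocyte metabolic enzymes.

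The genes whose profile was most like that of Alb were sought among all genes by the correlation of the brightest probe sets over the 7 arrays. The 8 highest were Aqp1, She, Cemip2, Flt4, Gatm, Capn2, Gap43 and Aplnr, with Pearson correlations of 0.987 to 0.994. Flt4, a receptor of endothelial growth factors, is 1 of the endothelial markers, and 0 of the 8 are in the 4 further liver lists. The lists are short, so absence from a list does not tell in which cells a gene is active. Aqp1, a water channel, read 7.20, 7.71 and 4.39 in TFIIA nc/nc and 7.25, 4.49, 3.80 and 4.61 in wild type. Flt4 read 6.10, 6.83 and 2.90 in TFIIA nc/nc and 6.54, 3.17, 2.54 and 2.77 in wild type. Among the liver genes, the correlation with Alb was 0.968 for Afp, 0.896 for Apoa2, 0.844 for Apoa1, 0.834 for Ttr, 0.756 for Hnf4a, 0.342 for Krt8, 0.290 for Ahsg and −0.888 for Krt18. With 7 arrays that fall into 2 clusters, such correlations chiefly describe which arrays were high.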

How the data were processed

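RNA of 7 sorted samples was measured on Affymetrix arrays. Per the submitters' processing notes, Affymetrix Expression Console with RMA produced the deposited intensities, 1 value for each probe set. Neither program versions nor batches were given in the sources used here. By design RMA subtracts background, makes array distributions alike and combines probes. The deposited intensities were on a linear scale, so log2 was taken with no pseudocount. Of 22690 probe sets, 64 controls were left out. Probe sets were named from GEO's platform table, with symbols renewed by Entrez identifier from a RefSeq table of GRCm38.p6 (12369 of 12393 genes matched). A single gene was named by 20380 probe sets, several by 691 and none by 1555.

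The genotype test was limma 3.58.1 (lmFit, eBayes; R 4.3.3) on 22626 probe sets and 7 arrays, without covariates, with 2-sided p-values adjusted by Benjamini-Hochberg and a threshold of 0.05. The fit was tested on simulated data. A gene is represented by its brightest probe set over all arrays. The number of arrays limits the precision. Named were all members, in each further list up to 3 genes of smallest p and up to 3 of largest difference by Lyve1 (mean level at least 4), and the 8 most like Alb. Members, lists and the Lyve1 limit were chosen with earlier results of these data known. Replicate numbers were not taken as pairs, since the labels state no pairing. The alternatives were other choices of probe set, filter, normalization, moderation and weights, covariates, a replicate block, sets of arrays and leaving out each array. Plots used matplotlib 3.10.9 in Python 3.11.15.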

Additional observations from a re-analysis of the deposited data

Results flagged for a closer look

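In the wild-type group of 4 arrays, 1 value stood apart from the other 3 by Dixon's rule in 11 of 60 probe sets examined. The rule sets the gap to the nearest value against the range of the 4 arrays. It thus also flags small gaps where the other 3 values are close together. Chance gives about 5% for a single group, and 6.21% of all 22626 probe sets had such a value. The 60 are no fair sample of these, since Lyve1 divides the arrays and some genes were named for their difference by Lyve1, so the count is given as a description. Of the 23 liver probe sets 5 did so, and in 4 of them the array was wild-type replicate 1. There Afp 1436879_x_at read 5.04 and Ttr 1454608_x_at 5.32, both high, Hnf4a 1450447_at read 3.28, high but dim, and Krt18 read 5.81, low. In Krt8 1435989_x_at it was wild-type replicate 4, at 2.81 against 2.61 to 2.63 in the other 3, a small gap at dim levels. Among the other named genes, wild-type replicate 1 stood high for Lyve1 at 9.73, Mrc1 at 9.03, Stab2 at 6.99, Oit3 at 6.96 and Cdh5 at 6.53. For Apom, wild-type replicate 2 stood low at 3.09, against 3.23 to 3.24 in the other 3. The TFIIA nc/nc group of 3 arrays is too small for this rule.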

How the results depend on the processing

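Over 19 alternative settings, 0 liver probe sets passed the threshold in limma, and the lowest adjusted p of any of the 9 genes was 0.212. Of 167 values of the 9 genes 160 kept their direction and 7 turned. Not all could turn. Fitting only the brightest probe sets or those above the median level, or with other moderation, left each difference as it was. The replicate block gave the same differences as leaving out wild-type replicate 4. The 160 are therefore not separate checks. Apoa2 turned to −0.31 with the Lyve1 level as a covariate, to −0.0792 and −0.432 within the arrays of high and low Lyve1, and to −0.20 without TFIIA nc/nc replicate 2. Alb turned to −0.0832 and Ttr to −0.33 within the arrays of low Lyve1, which hold 1 TFIIA nc/nc array assumed to vary like the others. Hnf4a turned to −0.24 when the probe set was chosen by its interquartile range, which picks another one. The cause of the other turns was not tested. Leaving out 1 array at a time, the difference was 1.15 to 3.72 for Alb (lowest without TFIIA nc/nc replicate 2, highest without replicate 3), 1.72 to 3.76 for Afp, 0.67 to 1.36 for Apoa1, −0.20 to 1.10 for Apoa2, 0.14 to 1.19 for Ttr, 0.10 to 0.71 for Krt8 and −0.76 to −0.45 for Krt18. Over all probe sets 1 passed, 2 within the arrays of high Lyve1, 0 within those of low Lyve1, and 1 to 2 leaving out 1 array. With the replicate block, which leaves wild-type replicate 4 without a partner, 1 probe set and 0 liver probe sets passed, and Alb differed by 1.88. Deviations of same-numbered arrays correlated at 0.36, −0.15 and 0.05 for replicates 1 to 3, against −0.47 to 0.34 for arrays of unlike number. The numbers were not taken as pairs, but these values do not show that the samples were unpaired. Low signal limits Ahsg and 21 of the 23 other plasma protein genes, which lie below the array median on all 7 arrays. It also limits Apoa1 in the wild-type arrays and in TFIIA nc/nc replicate 3.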
